A study of Mus musculus with 4 samples.

Results

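The data described here are the levels of 6 transporter genes in the mouse kidney cortex, taken by name from a table of 19609 gene rows. *Slc5a1* (SGLT1) and *Slc5a2* (SGLT2) encode sodium-glucose cotransporters, and *Slc5a10* (SGLT5) encodes a relative that carries mannose and fructose. *Slc5a8* (SMCT1) and *Slc5a12* (SMCT2) encode sodium-coupled cotransporters of lactate and other monocarboxylates. *Slc2a2* (GLUT2) encodes a facilitative glucose transporter that needs no sodium. All 6 were rows of the table, and each has a value in all 23 clusters of nuclei from all 4 mice.

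As background, the proximal tubule takes back filtered glucose at its apical membrane with sodium-glucose cotransporters, which are driven by the sodium gradient across that membrane. SGLT2 does most of this work in the early tubule, the S1 and S2 segments, and SGLT1 is known as the high-affinity cotransporter of the late tubule, the S3 segment. GLUT2 lets the glucose out across the basolateral membrane of early cells, while the SMCT proteins recover filtered lactate.

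Single-nucleus RNA sequencing was done on 4 male mice of mixed strain, 1 mouse per condition. Control mice carried TRE-hKLF6 alone, a transgene for human KLF6 that stays silent without a transactivator, and OE mice carried CAG-rtTA,TRE-hKLF6, in which the broadly active CAG promoter drives the transactivator, so that the gene can be induced throughout the body. All mice were fed doxycycline for a week. The AAI mice, 1 of each genotype, then received a single injection of aristolochic acid I, a plant toxin that forms DNA adducts in the proximal tubule, and were killed a day later, and the other 2 mice have the treatment label none. The ages of the mice are not given in the sources used here. The 4 conditions are called Control, Control AAI, OE and OE AAI below.

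Each value, called a level, is an average for 1 cluster in 1 mouse of counts brought to a total of 10000 in every nucleus. The table numbers its clusters, and their names were assigned by the order of sheets in the study's marker workbook. Cluster names are used as labels here: PT is the proximal tubule, LH-AL the ascending limb of the loop of Henle and EC endothelium, and InjuredPT-A and InjuredPT-B are the injured proximal tubule clusters. With 1 mouse per condition no spread between mice can be given and no test was possible, so differences are described by their size alone, on the log2(level + 1) scale, which understates the change of low genes. A gene counts as higher or lower here when the larger level was at least 0.5 and the log2 difference at least 0.2. For each comparison, the share of all genes past the same limits is given beside the count of members or related genes. Flagged pairs, marker counts and counts under changed settings stand without such a share. The number of nuclei behind a level is not in the table, so its precision is unknown.

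The human transgene has no row, so its induction could not be checked. Mouse *Klf6* had a mean level over the 5 normal PT clusters of 0.215 in Control, 0.406 in Control AAI, 0.137 in OE and 0.327 in OE AAI. The cluster names held against most marker lists: 11 of 12 proximal tubule markers were highest in a normal PT cluster, 7 of 8 injury markers in an injured cluster, 3 of 3 thick ascending limb markers in an LH-AL cluster and 4 of 4 podocyte markers in Podocytes, whereas only 1 of 4 mesangial markers was highest in the cluster named MC. All 5 endothelial markers were highest in EC-2 and next highest in Macrophage, so EC-1 stood below both and its name is used as a label only. The percentage of genes at 0 ran from 15.1 to 31.3 in the normal PT clusters, from 22.2 to 29.7 in the injured clusters of the AAI mice and from 40.8 to 62.6 in the injured clusters of the uninjured mice.

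The 6 genes fell into 3 patterns over the clusters. *Slc5a2*, *Slc5a12* and *Slc2a2* were highest in the early clusters, PT-S1-S2-1 and PT-S1-S2-2. *Slc5a8* and *Slc5a10* were highest in the late clusters, PT-S3-2 and PT-S3-3. *Slc5a1* was low in every proximal tubule cluster and highest in the ascending limb. Between the mean of the 2 early and the mean of the 3 late clusters, 3 of the 5 members with high enough levels were higher in the early tubule in all 4 mice, where 12.4% of all genes were, and 2 of 5 were lower, where 10.4% were. The clusters were made from the same nuclei, and *Slc5a12*, *Slc5a2*, *Slc5a8* and *Slc5a10* are used as segment markers, so these counts describe the clusters and are not tests.

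**Figure D1:**
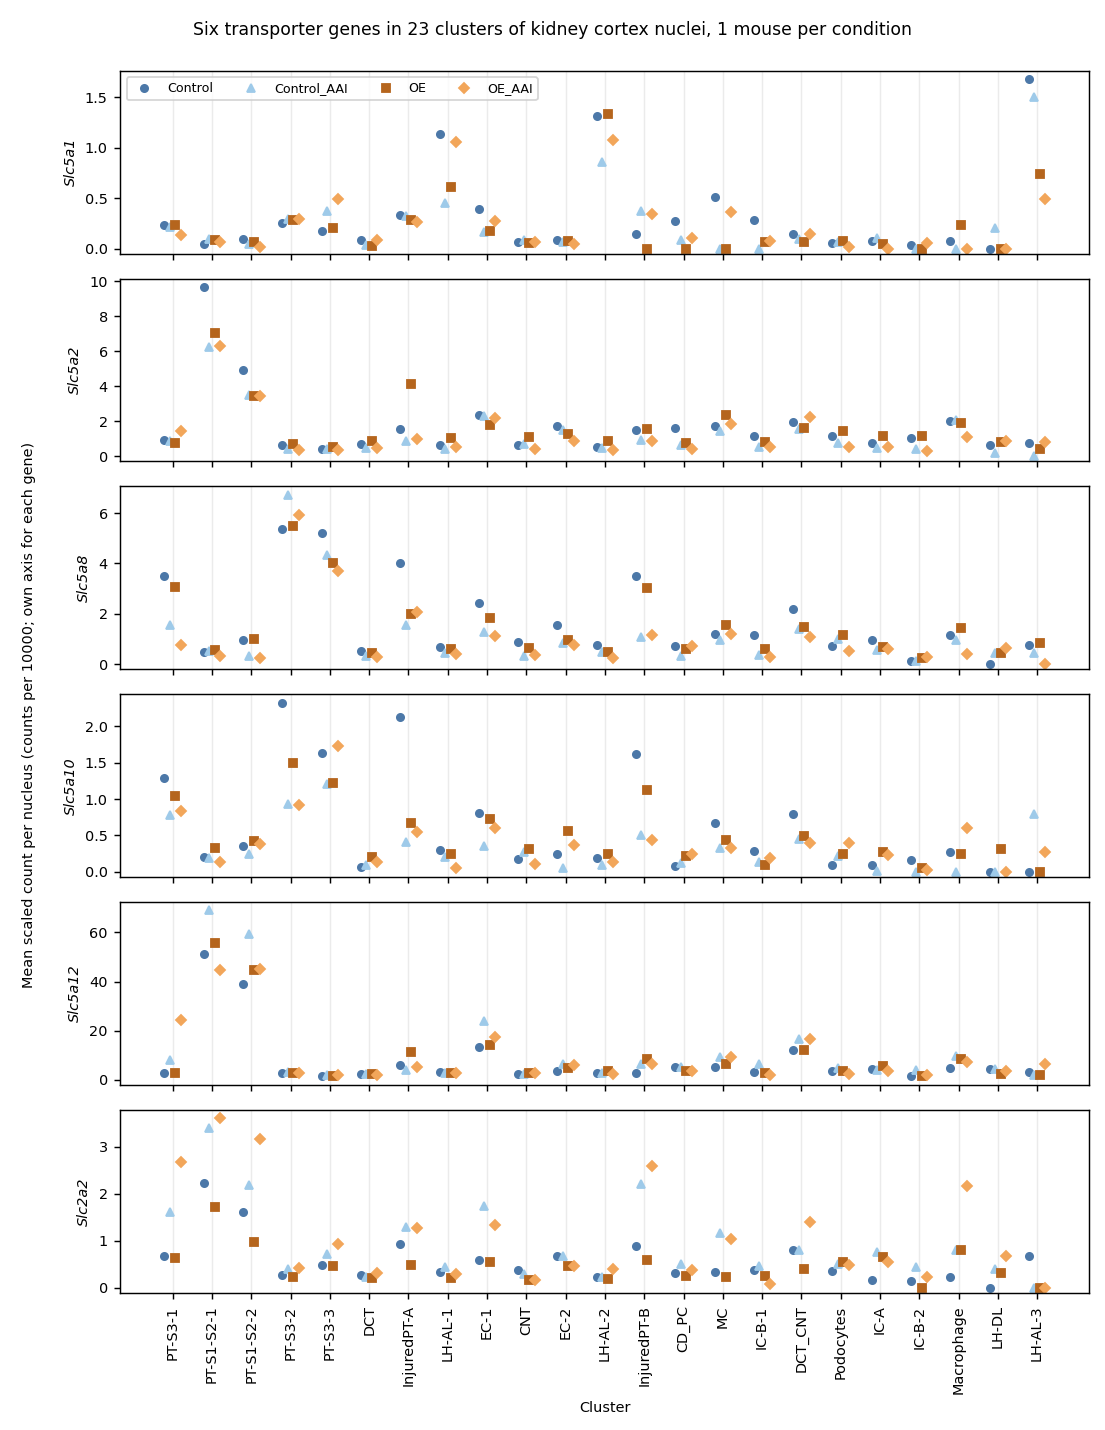
Level of each of the 6 genes (mean scaled count per nucleus, counts per 10000, own vertical axis for each gene) in 23 clusters, with 1 point per mouse and the mice marked by colour and shape. *Slc5a2*, *Slc5a12* and *Slc2a2* peak in the PT-S1-S2 clusters, *Slc5a8* and *Slc5a10* in PT-S3-2 and PT-S3-3, and *Slc5a1* in the LH-AL clusters.

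*Slc5a12*, the low-affinity lactate cotransporter, had the largest early-minus-late log2 difference of the members in each mouse. Its level in PT-S1-S2-1 was 51.4 in Control, 69.0 in Control AAI, 55.8 in OE and 44.5 in OE AAI, and in PT-S1-S2-2 it was 38.9, 59.3, 44.8 and 45.3 in the same order. In PT-S3-2 and PT-S3-3 it lay between 1.51 and 3.1 in all 4 mice. The early clusters thus stood apart from these late clusters in each mouse, and the early-minus-late log2 difference ran from 2.11 in OE AAI, where the late mean includes a high PT-S3-1, to 3.96 in OE. The order of the 2 early clusters was not the same in every mouse.

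*Slc5a2*, the main glucose cotransporter of the early tubule, stood higher in PT-S1-S2-1 than in PT-S1-S2-2 in each mouse. Its level in PT-S1-S2-1 was 9.65 in Control, 6.25 in Control AAI, 7.02 in OE and 6.32 in OE AAI, and in PT-S1-S2-2 it was 4.92, 3.47, 3.46 and 3.44. The ranges of these clusters did not overlap. In the 3 late clusters the level was between 0.344 and 1.42, and the early-minus-late log2 difference was 2.31 in Control, 1.89 in Control AAI, 1.91 in OE and 1.78 in OE AAI.

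*Slc2a2*, the basolateral exit path for glucose, had a shallower early pattern. The mean of the early clusters was 1.92 in Control, 2.79 in Control AAI, 1.35 in OE and 3.38 in OE AAI, against 0.470, 0.907, 0.429 and 1.34 for the late clusters, and the log2 difference ran from 0.72 to 0.99. The ranges of PT-S1-S2-1, from 1.72 to 3.60, and PT-S1-S2-2, from 0.98 to 3.15, overlapped, and both overlapped that of PT-S3-1, from 0.619 to 2.68.

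*Slc5a8*, the high-affinity lactate cotransporter, was highest in PT-S3-2, with levels of 5.37 in Control, 6.72 in Control AAI, 5.47 in OE and 5.93 in OE AAI. PT-S3-3 came next, with 5.21, 4.33, 4.02 and 3.69, and its range lay wholly below that of PT-S3-2. In the early clusters the level was between 0.239 and 1.00. The early-minus-late log2 difference was -1.72, -1.86, -1.55 and -1.80 in Control, Control AAI, OE and OE AAI.

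*Slc5a10*, the mannose and fructose cotransporter, reached 2.32 in Control, 0.938 in Control AAI, 1.49 in OE and 0.918 in OE AAI in PT-S3-2, and 1.63, 1.21, 1.22 and 1.73 in PT-S3-3. These clusters overlapped, and PT-S3-1 followed with a range of 0.778 to 1.29. The early clusters were between 0.142 and 0.419, and the early-minus-late log2 difference ran from -1.11 in Control to -0.70 in Control AAI.

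*Slc5a1*, the high-affinity glucose cotransporter, was low in the proximal tubule and was not highest in its textbook place, the late tubule. In the normal PT clusters its level was at most 0.495, under the minimum of 0.5, so it entered none of the counts. Within that low range the late clusters were higher, with a late mean of 0.223 in Control, 0.293 in Control AAI, 0.241 in OE and 0.307 in OE AAI, against 0.0708, 0.0662, 0.0726 and 0.0396 for the early mean.

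The ascending limb held more *Slc5a1* than the proximal tubule. In LH-AL-2 the level was 1.32 in Control, 0.858 in Control AAI, 1.33 in OE and 1.07 in OE AAI. LH-AL-3 gave 1.68, 1.50, 0.738 and 0.494, and LH-AL-1 gave 1.13, 0.447, 0.613 and 1.06. In 11 of 12 pairs of an LH-AL cluster and a mouse the level was above every normal PT level of the same mouse, and the exception was LH-AL-3 in OE AAI, at 0.494 against 0.495 in PT-S3-3. The ranges of the LH-AL clusters overlapped, so their order is not given. *Slc12a1*, the sodium-potassium-chloride cotransporter that defines the thick ascending limb, was between 121 and 217 in all of them. *Umod*, uromodulin, was between 30.4 and 41.5 in LH-AL-1 and LH-AL-2. In LH-AL-3 it was 9.33 in Control, 7.07 in Control AAI, 15.6 in OE and 3.36 in OE AAI. In EC-1 it was 9.11, 9.29, 9.01 and 10.2 in the same order, so LH-AL-3 was below EC-1 in the AAI mice only. Between 60.5% and 63.4% of genes were at 0 in LH-AL-3, so its *Slc5a1* levels rest on sparse columns. In EC-1, where *Slc12a1* was also present at 27.7 to 38.1, *Slc5a1* was between 0.166 and 0.394.

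In GRCm38 with the GENCODE annotation, the build and kind of annotation that match the table, the genes lie on 6 chromosomes. *Slc5a1* (ENSMUSG00000011034) spans chr5:33104219-33162870 on the + strand, *Slc5a2* (ENSMUSG00000030781) chr7:128265657-128272430 on the + strand, and *Slc5a8* (ENSMUSG00000020062) chr10:88885992-88929515 on the + strand. *Slc5a10* (ENSMUSG00000042371) spans chr11:61672781-61720826 on the - strand, *Slc5a12* (ENSMUSG00000041644) chr2:110597298-110647779 on the + strand, and *Slc2a2* (ENSMUSG00000027690) chr3:28697903-28731359 on the + strand. *Slc5a2* is the short one, at 6.77 kb, and the others span 33.5 to 58.7 kb. This matters because intronic reads were counted and levels are not per length, so a level is compared only within its gene. Differences of different genes stand side by side here, and on this scale their size also depends on the level. Counting strand is not stated. *Fam83g*, with a level of up to 0.624 as a mean of 4 mice, lies inside *Slc5a10* on the other strand. *BC017158* overlaps the end of *Slc5a2*, and the antisense gene *1700112D23Rik* overlaps *Slc2a2*, at up to 0.198 and 0.205. Reads of these pairs cannot be told apart if strand was not used.

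The promoters of *Slc5a8* and *Slc2a2* are shown because these genes had opposite segment preferences and both differed past the limit after AAI in OE. They are 250 bases before the RefSeq start in GRCm38.p6, 5′ to 3′ on the gene's strand, and 4 of the 6 members had an entry. Capitals mark matches on either strand to CCGCCC, the core of a GC box, and to CACCC. GC and CACCC boxes are letters that Sp and KLF factors are known to bind. Matches to different motifs may overlap.
*Slc2a2*, chr3:28697653-28697902, +: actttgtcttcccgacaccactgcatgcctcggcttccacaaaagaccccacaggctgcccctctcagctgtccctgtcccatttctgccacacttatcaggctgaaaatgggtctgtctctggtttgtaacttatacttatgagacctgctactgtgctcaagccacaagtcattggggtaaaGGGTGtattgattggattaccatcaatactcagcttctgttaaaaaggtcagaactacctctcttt
*Slc5a8*, chr10:88885742-88885991, +: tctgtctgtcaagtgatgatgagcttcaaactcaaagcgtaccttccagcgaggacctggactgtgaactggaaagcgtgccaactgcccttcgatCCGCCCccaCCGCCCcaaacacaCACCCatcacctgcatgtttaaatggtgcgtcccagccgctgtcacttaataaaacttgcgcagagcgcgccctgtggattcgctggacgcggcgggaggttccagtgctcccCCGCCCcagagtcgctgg

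*Slc5a8* held 3 matches to CCGCCC and 1 to CACCC, and *Slc2a2* held 1 to CACCC, read as its reverse complement. The windows of both RefSeq starts of *Slc5a10* held neither motif, and *Slc5a1* held 1 match to CACCC. Among the 32851 windows of the same length, 32.7% held CCGCCC and 52.0% CACCC. A match is a description of letters and no evidence of binding.

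With AAI in Control, *Slc5a12* and *Slc2a2* were higher in the normal proximal tubule and *Slc5a2* and *Slc5a10* were lower. Of 5 members with high enough levels, 2 were higher, where 11.7% of all genes were, and 2 were lower, where 11.25% were. Over the 5 normal PT clusters the mean level of *Slc5a12* was 19.5 in Control and 28.3 in Control AAI, a log2 difference of 0.52, and that of *Slc2a2* was 1.05 and 1.66, a difference of 0.37. *Slc5a2* went from 3.32 to 2.29, a difference of -0.39, and *Slc5a10* from 1.16 to 0.672, a difference of -0.37. *Slc5a8*, at 3.11 and 2.70, stayed under the limit, with a difference of -0.15.

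In OE, AAI went with a higher *Slc2a2* and a lower *Slc5a8*. Of 5 members, 1 was higher, where 19.5% of all genes were, and 1 was lower, where 15.4% were. The mean of *Slc2a2* over the 5 normal PT clusters was 0.797 in OE and 2.16 in OE AAI, a log2 difference of 0.81, and that of *Slc5a8* was 2.82 and 2.18, a difference of -0.26. Without PT-S3-1 the difference of *Slc5a8* was -0.09. *Slc5a2*, at 2.49 and 2.38, *Slc5a10*, at 0.902 and 0.802, and *Slc5a12*, at 21.5 and 23.8, had differences of -0.05, -0.08 and 0.14.

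**Figure D2:**
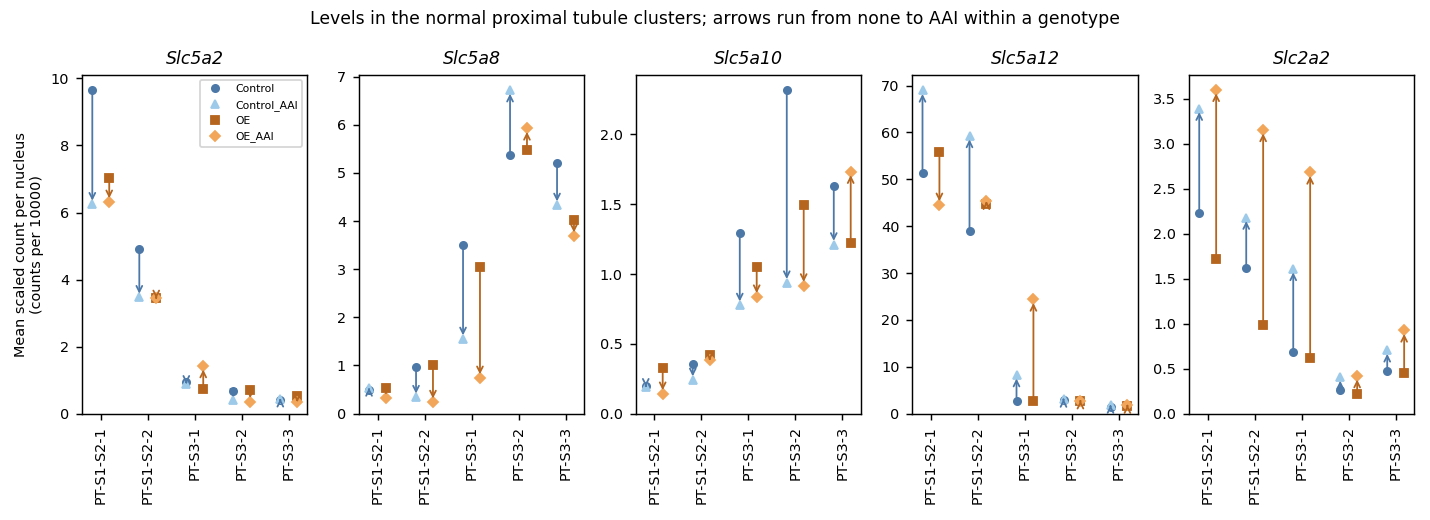
Levels of 5 members (mean scaled count per nucleus, counts per 10000) in the 5 normal PT clusters. Each arrow runs from the uninjured to the AAI mouse of a genotype, blue for Control and brown for OE. *Slc2a2* points up in all 10 pairs, and *Slc5a12* in PT-S3-1 ends at 24.4 in OE AAI.

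*Slc2a2* was higher with AAI in 4 of 5 normal PT clusters in Control, where 5.89% of all genes were higher in at least 4, and in 4 of 5 in OE, where 11.06% were. The exception in both was PT-S3-2, where its levels were under the minimum. In PT-S1-S2-1 its level was 2.23 in Control and 3.39 in Control AAI, and 1.72 in OE and 3.60 in OE AAI. In PT-S1-S2-2 it was 1.62 and 2.18, and 0.98 and 3.15. In the late clusters levels were lower, with 0.257 and 0.405 in Control and 0.218 and 0.418 in OE for PT-S3-2, and 0.473 and 0.704 in Control and 0.451 and 0.926 in OE for PT-S3-3. With 1 mouse each, this agreement across clusters is agreement within the same pair of animals.

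*Slc5a2* was lower with AAI in the early clusters of Control, with log2 differences of -0.56 in PT-S1-S2-1 and -0.40 in PT-S1-S2-2. In OE the same differences were -0.13 and -0.01. The uninjured OE mouse had levels close to those of the AAI mice, as the values given for each cluster show.

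*Slc5a12* differed with AAI in opposite directions in PT-S1-S2-1 of the 2 genotypes. The log2 difference was 0.42 in Control and -0.32 in OE there, and 0.60 and 0.02 in PT-S1-S2-2. Of the 4 other early markers, *Slc34a1*, *Slc7a7*, *Slc7a8* and *Gatm*, none was higher and 2 were lower with AAI in PT-S1-S2-1 of Control, where their summed level was 113 without and 84.4 with AAI. In OE 1 of 4 was higher and none lower, with sums of 90.9 and 89.0. Shares of all genes past the limits in PT-S1-S2-1 were not worked out, so these marker counts have no background. The part of these markers in the differences of *Slc5a12* was not tested.

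The late members differed among themselves. *Slc5a10* was lower with AAI in PT-S3-2 in both genotypes, with differences of -0.78 in Control and -0.38 in OE, whereas *Slc5a8* in that cluster was higher by 0.28 in Control and, at 0.10, stayed under the limit in OE. In PT-S3-3 *Slc5a10* had a difference of -0.25 in Control and 0.30 in OE. Segment markers differed there too, and not all one way. Of the 5 late markers *Slc7a13*, *Cyp7b1*, *Slc22a7*, *Acsm3* and *Slc16a9*, 2 were higher and 2 lower with AAI in Control, and 3 higher and 2 lower in OE. *Cyp7b1* was 0.746 in Control and 11.5 in Control AAI and *Slc16a9* 3.24 and 11.7, while *Acsm3* was 4.32 and 2.78 and *Slc22a7* 0.892 and 0.407. Of the 4 early markers 3 had high enough levels, and 2 were lower in Control and 3 in OE. Their summed level of 60.3 in Control and 11.8 in Control AAI was mostly *Slc34a1*, at 56.8 and 9.94, which was also below its level without AAI in the other normal PT clusters of both genotypes. *Gatm*, at 0.762 and 0.805, and *Slc7a8*, at 0.292 and 0.286, stayed under the limit in Control. Shares of all genes past the limits in PT-S3-3 were not worked out, so these marker counts have no background. The part of these markers in the values of *Slc5a10* was not tested.

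In PT-S3-1 *Slc5a12* and *Slc2a2* were higher and *Slc5a8* was lower with AAI in both genotypes, *Slc5a10* was lower in Control, and *Slc5a2* was higher in OE. *Slc5a12* was 2.72 in Control and 8.24 in Control AAI, a log2 difference of 1.31, and 2.59 in OE and 24.4 in OE AAI, a difference of 2.82. *Slc5a8* was 3.49 and 1.55 in Control, a difference of -0.82, and 3.05 and 0.742 in OE, a difference of -1.22. *Slc2a2* was 0.679 and 1.61 in Control and 0.619 and 2.68 in OE, with differences of 0.64 and 1.19. *Slc5a2* differed by -0.04 in Control and by 0.47 in OE, and *Slc5a10* by -0.37 and -0.16.

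In this cluster 2 of 5 members were higher with AAI in Control, where 16.6% of all genes were, and 2 were lower, where 15% were. In OE 3 of 5 were higher, where 26.6% of all genes were, and 1 was lower, where 17.8% were. PT-S3-1 was looked at on its own after its values were seen.

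Other segment markers moved in PT-S3-1 as well. Of the 4 early markers, 1 was higher and 1 lower with AAI in Control, with summed levels of 70.6 without and 37.3 with AAI, and 3 were higher and 1 lower in OE, with sums of 53.0 and 41.1. The gene that was lower in both genotypes was *Slc34a1*, the phosphate cotransporter, at 65.6 and 31.6 in Control. Of the 5 late markers, 3 had high enough levels, and of these 1 was higher and 2 lower in Control, with sums of 21.5 and 16.7, and 3 were lower in OE, with sums of 18.7 and 6.58. *Slc7a13*, an amino acid transporter of the S3 segment, was 13.5 and 9.92 in Control and 9.09 and 2.38 in OE. None of the early or late markers was at 0. A change of which nuclei fell into PT-S3-1 and a change within nuclei cannot be told apart in a table of cluster means.

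**Figure D3:**
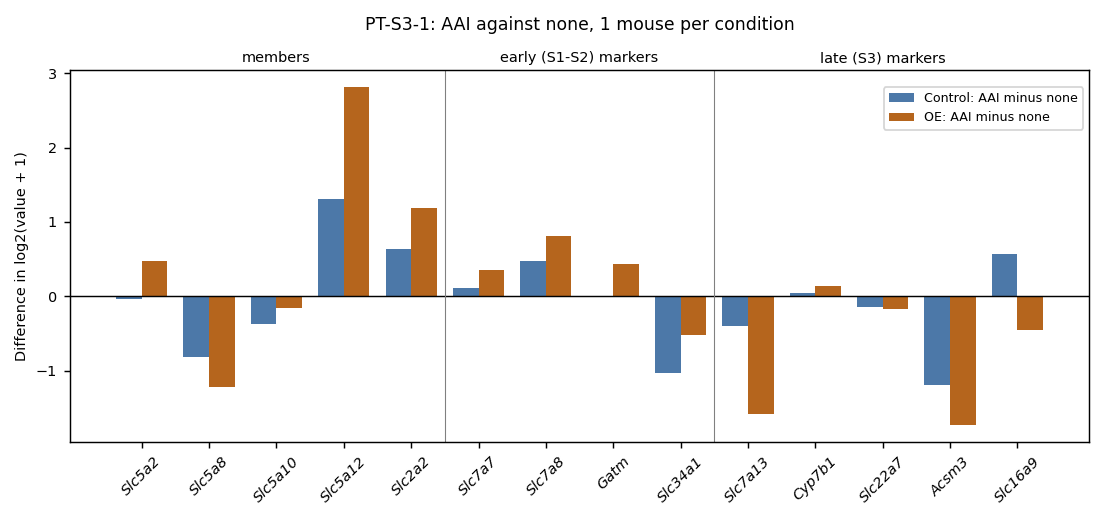
Difference in log2(level + 1) between AAI and none in PT-S3-1, as bars from 0, for 5 members, 4 early and 5 late markers, blue for Control and brown for OE. *Slc5a12* is at 1.31 and 2.82 and *Slc5a8* at -0.82 and -1.22. Of the early markers, *Slc7a7* and *Slc7a8* are above 0 and *Slc34a1* is below 0 in both genotypes. Of the late markers, *Slc7a13*, *Acsm3* and *Slc22a7* are below 0 and *Cyp7b1* is above 0 in both genotypes. *Gatm* and *Slc16a9* differ in direction between the genotypes.

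Between the genotypes without AAI, *Slc5a2* was lower in OE. Of 5 members none was higher, where 7.84% of all genes were, and 1 was lower, where 9.33% were. Its mean over the 5 normal PT clusters was 3.32 in Control and 2.49 in OE, a log2 difference of -0.31, and the difference was -0.41 in both early clusters. *Slc2a2*, at 1.05 and 0.797, had a difference of -0.19 over all 5 clusters and of -0.32 over the early clusters alone, where it was lower in OE in both. *Slc5a12*, at 19.5 and 21.5, differed by 0.14.

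With AAI, OE against Control gave 1 of 5 members higher, where 6.32% of all genes were, and 2 lower, where 7.74% were. *Slc2a2* was 1.66 in Control AAI and 2.16 in OE AAI, a difference of 0.25. *Slc5a12*, at 28.3 and 23.8, had a difference of -0.24, and *Slc5a8*, at 2.70 and 2.18, one of -0.21. Without PT-S3-1 the values became 0.18 for *Slc2a2*, -0.48 for *Slc5a12* and -0.17 for *Slc5a8*, so that only *Slc5a12* stayed past the limit. In the 3 late clusters alone *Slc5a12* was 4.38 and 9.64, a difference of 0.98, which rests on PT-S3-1. The comparisons of AAI and of genotype share mice, so they are given side by side and not as independent results.

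In InjuredPT-A of the AAI mice, 4 of 5 members were lower than the mean of the 5 normal PT clusters of the same mouse, in both mice, where 27% of all genes were, and none was higher, where 43.3% of all genes were. *Slc5a12* was 4.12 against 28.3 in Control AAI and 5.14 against 23.8 in OE AAI, with log2 differences of -2.52 and -2.01. *Slc5a2* was 0.889 against 2.29 and 0.989 against 2.38, with differences of -0.80 and -0.76. *Slc5a10* and *Slc2a2* differed by less, with -0.24 and -0.22 for *Slc5a10* and -0.22 and -0.48 for *Slc2a2*. *Slc5a8*, at 1.54 and 2.08, had differences of -0.54 and -0.05. The median over all genes was 0.22 in Control AAI and 0.16 in OE AAI, so relative to all genes each member stood that much lower.

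In InjuredPT-B, 3 of 5 members were lower in both AAI mice, where 13.1% of all genes were, and none was higher in both, where 23.4% of all genes were. *Slc5a12* was 6.30 in Control AAI and 6.31 in OE AAI, with differences of -2.003 and -1.76. *Slc5a2*, at 0.931 and 0.894, differed by -0.77 and -0.83, and *Slc5a8*, at 1.08 and 1.17, by -0.83 and -0.55. *Slc2a2* was 2.20 and 2.59, against 1.66 and 2.16 in the normal clusters, with differences of 0.27 and 0.19. *Slc5a10*, at 0.512 and 0.444, differed by -0.15 and -0.32. The median over all genes was 0.12 in both mice.

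The reference decided most of these directions, since normal early and late clusters differ so much in the members. Against the 2 early clusters, InjuredPT-B was lower in *Slc5a12*, *Slc5a2* and *Slc2a2* and higher in *Slc5a8*, by 0.53 in Control AAI and 0.76 in OE AAI. Against the 3 late clusters it was lower in *Slc5a8* and *Slc5a10* and higher in *Slc2a2*. *Slc5a2* was lower in both injured clusters against the early clusters and higher in InjuredPT-A against the late ones, by 0.26 and 0.22. The level of *Slc5a12* in InjuredPT-A was 4.12 against a late mean of 4.38 in Control AAI, and 5.14 against 9.64 in OE AAI. In the uninjured mice the same clusters had *Slc5a12* levels of 6.14 and 11.35 in InjuredPT-A and 2.69 and 8.32 in InjuredPT-B, which rest on columns with many genes at 0.

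**Figure D4:**
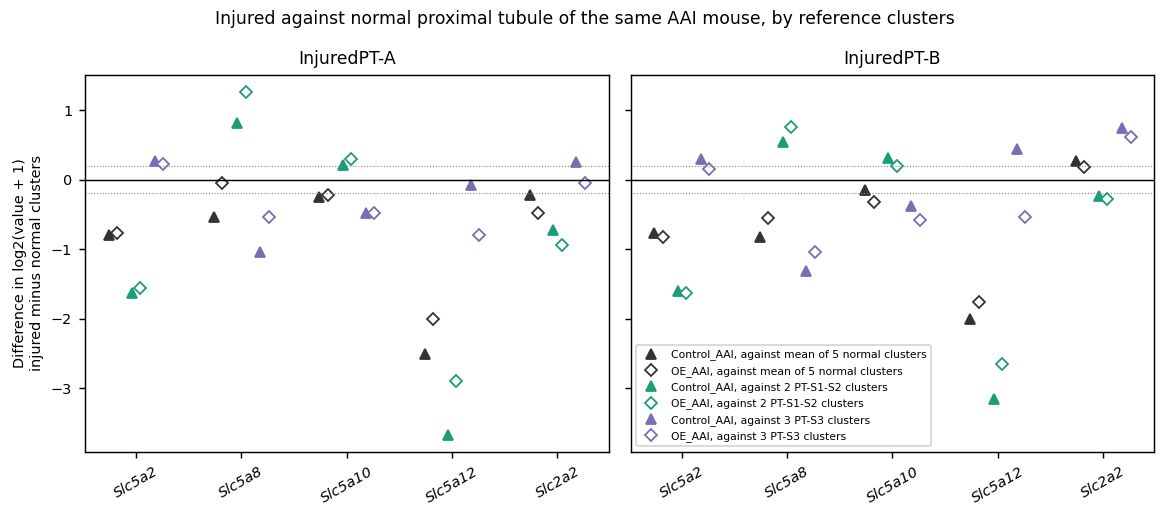
Difference in log2(level + 1) between each injured cluster and 3 sets of normal clusters of the same AAI mouse, for 5 members. Filled triangles are Control AAI, open diamonds OE AAI, colours the reference, and dotted lines the limits of 0.2. *Slc5a12* in InjuredPT-A is at -2.52 and -2.01 against all 5 clusters. Its level there was 4.12 against 4.38 in the late clusters of Control AAI, and 5.14 against 9.64 in OE AAI. *Slc5a2*, *Slc5a8*, *Slc5a10* and *Slc2a2* change side with the reference, as does *Slc5a12* in InjuredPT-B of Control AAI.

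Related transporters and partners were taken from a list of 40 genes, 34 of which had a row. Between early and late clusters, 12 had high enough levels in all 4 mice, and 5 were higher, where 12.4% of all genes were, and 1 was lower in the early tubule, where 10.4% were. *Slc16a14*, an orphan of the monocarboxylate transporter family, had levels of 6.68, 5.04, 3.59 and 7.58 in the early clusters of Control, Control AAI, OE and OE AAI, against 1.21, 1.00, 0.96 and 1.47 in the late ones. *Slc16a10*, which carries aromatic amino acids, differed by 1.11 to 1.78 and *Pdzk1ip1* (MAP17), the small partner that SGLT2 needs for its activity, by 0.51 to 0.66. *Slc16a9*, a carnitine carrier, was lower in the early clusters, with differences from -1.68 to -0.85. *Slc16a4* had differences from -0.21 to -0.08. *Pdzk1*, a scaffold of the apical membrane, and the transcription factor *Hnf4a* had differences of at most 0.34 in size and were not counted.

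Of the list, in InjuredPT-A 14 had high enough levels, and 4 were higher in both AAI mice, where 43.3% of all genes were, and 8 were lower, where 27% were. *Bsg*, basigin, the chaperone of the monocarboxylate transporters, was 2.26 and 2.28 against 0.89 and 0.84, and *Slc16a1* (MCT1), the passive lactate carrier, was 0.54 and 0.87 against 0.13 and 0.15. *Atp1b1* was higher by 0.43 and 0.84. Among the lower genes, *Slc16a9* differed by -1.95 and -1.82, *Pdzk1* by -1.48 and -1.43, *Slc16a14* by -0.90 and -1.18, and *Hnf4a* by -0.75 and -0.56. *Pdzk1ip1*, at 1.14 and 1.40 against 1.20 and 1.08, was not counted.

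In InjuredPT-B 12 of the list had high enough levels, 1 was higher, where 23.4% of all genes were, and 5 were lower, where 13.1% were. *Pawr*, which encodes a partner of the WT1 protein, was higher by 0.36 and 0.37, and *Bsg* differed by 0.15 in both mice. Among the lower genes, *Slc16a9* differed by -1.06 and -1.64, *Pdzk1* by -0.60 and -1.05, *Slc16a14* by -0.58 and -1.08, and *Hnf4a* by -0.35 and -0.65. *Pdzk1ip1* differed by -0.27 and -0.11.

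With AAI, 12 of the list had high enough levels in the normal PT clusters of Control and 13 in those of OE. In Control 3 were higher, where 11.7% of all genes were, and 2 lower, where 11.25% were. *Slc16a9* went from 3.65 to 7.28, *Pawr* from 3.63 to 5.45 and *Pdzk1* from 5.26 to 6.61, while *Slc16a14* went from 3.40 to 2.61 and *Hnf4a* from 3.00 to 2.44. *Slc16a12*, a creatine carrier, had a difference of -0.08 and was not counted. In OE 7 were higher, where 19.5% of all genes were, and 1 lower, where 15.4% were. The higher genes were led by *Slc16a14*, from 2.01 to 3.91, *Slc16a9*, from 4.32 to 7.31, and *Slc16a10*, from 1.69 to 3.09. The lower gene was *Bsg*, from 1.29 to 0.84, and *Hnf4a* and *Pawr*, with differences of -0.15 and -0.10, were not counted. *Pdzk1* differed by 0.49 in OE, and *Pdzk1ip1* by 0.06 in Control and -0.08 in OE.

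Between the genotypes without AAI, 2 of 12 were higher in OE, where 7.84% of all genes were, and 4 lower, where 9.33% were. *Bsg* was 0.81 in Control and 1.29 in OE, and *Pawr* 3.63 and 4.68, whereas *Slc16a14* was 3.40 and 2.01, *Slc16a12* 2.00 and 1.49, and *Slc16a10* 2.22 and 1.69. *Slc16a9*, at 3.65 and 4.32, came just under the limit. With AAI 4 of 13 were higher, where 6.32% of all genes were, and 1 lower, where 7.74% were. *Slc16a14* was 2.61 in Control AAI and 3.91 in OE AAI, *Slc16a10* 2.25 and 3.09, and *Slc2a5*, a fructose transporter, 0.47 and 0.82, whereas *Pawr* was 5.45 and 4.29. *Slc16a4* and *Pdzk1ip1* both differed by -0.08 and were not counted. Without AAI *Pdzk1ip1* differed by 0.07, and *Hnf4a* differed by -0.03 without and 0.04 with AAI. *Pdzk1*, at 5.26 in both uninjured mice, was higher by 0.21 with AAI.

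Genes with the pattern most like each member were found by Pearson's r over the 23 clusters, on log2 of the mean over 4 mice, among 8112 genes. Clusters share mice and depth, so r is a description. *Slc5a2* was most like *Gatm* (r = 0.987), which starts creatine synthesis, *Prodh2* (0.947) and *Lipa* (0.934), and *Slc5a12* most like *Gldc* (0.976), of glycine cleavage, *Slc16a14* (0.959) and *Gatm* (0.958). *Slc5a8* was most like the S3 genes *Slc7a13* (0.982) and *Acsm3* (0.978) and *Slc1a4* (0.971), and *Slc5a10* most like *BC035947* (0.962), *Notum* (0.960) and *Slc1a4* (0.958). *Slc2a2* was most like *AC135964.2* (0.958), *D630023F18Rik* (0.949) and *Slc34a1* (0.947). *Slc5a1* was most like *Rps6ka6* (0.926), *Enox1* (0.919) and *Slc24a5* (0.894), whose means were highest in LH-AL-3. By ranks, as Spearman's rho over the same clusters, these 3 stood at 0.530, 0.196 and 0.754. Among the members, r was 0.973 for *Slc5a8* with *Slc5a10* and 0.942 for *Slc5a2* with *Slc5a12*, and between -0.317 and 0.104 for *Slc5a1* with any other member. Over all 92 columns, r of a member with its 3 named genes ran from 0.571 for *Slc2a2* with *Slc34a1* to 0.944 for *Slc5a12* with *Gldc*.

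Outside the proximal tubule the members were seen in many clusters where they are not known to be made. As a percentage of the normal PT mean of the same mouse, the median over 16 other clusters and 4 mice was 16.1 for *Slc5a12*, 23.5 for *Slc5a8*, 24.2 for *Slc5a10*, 28.9 for *Slc2a2*, 34.2 for *Slc5a2* and 43.6 for *Slc5a1*. The 12 proximal tubule markers were read the same way: their median percentage lay between 72.6 and 77.4 in EC-1, between 62.5 and 67.3 in DCT_CNT and between 14.8 and 22.1 in DCT, over the 4 mice. In EC-1 the mean over mice was 73.5 for *Slc5a12*, 83.7 for *Slc5a2*, 60.3 for *Slc5a8*, 69.2 for *Slc5a10* and 72.8 for *Slc2a2*, beside 74.9 for the markers. In EC-1, 4 of these 5 genes stood at or below the markers, and *Slc5a2* stood above them.

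*Slc5a12* was above the markers' median in 6 of 64 pairs of a cluster and a mouse, *Slc5a8* in 23, *Slc5a10* in 26, *Slc2a2* in 37 and *Slc5a2* in 48. With the highest normal PT cluster as the reference in place of the mean of 5, these numbers were 1, 7, 14, 22 and 9, so the position of *Slc5a2* above the markers rests on the mean over early and late clusters. For *Slc5a1* the numbers were 44 and 40. Above the highest of the 12 markers stood *Slc5a12* and *Slc5a8* in none of the 64 pairs, *Slc5a2* and *Slc5a10* in 4 each, *Slc2a2* in 6 and *Slc5a1* in 32. *Slc5a1* thus departed from the markers, and its mean percentage was 450 in LH-AL-1, 635 in LH-AL-2 and 613 in LH-AL-3, where the markers were at 19.8, 18.5 and 15.5. Its normal PT mean was only 0.162 to 0.202 over the mice, so these percentages rest on a low reference. In Control, 7 of 16 clusters outside the proximal tubule held more *Slc5a1* than every normal PT cluster, EC-1 and MC among them. For EC-1 and MC this held in no other mouse. In Control AAI, OE and OE AAI, EC-1 was at 0.166, 0.171 and 0.274, and MC at 0, 0 and 0.366. The highest normal PT level of these mice was 0.375, 0.287 and 0.495. Free RNA, mixed nuclei and true transcription in the other clusters cannot be told apart in cluster means.

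**Figure D5:**
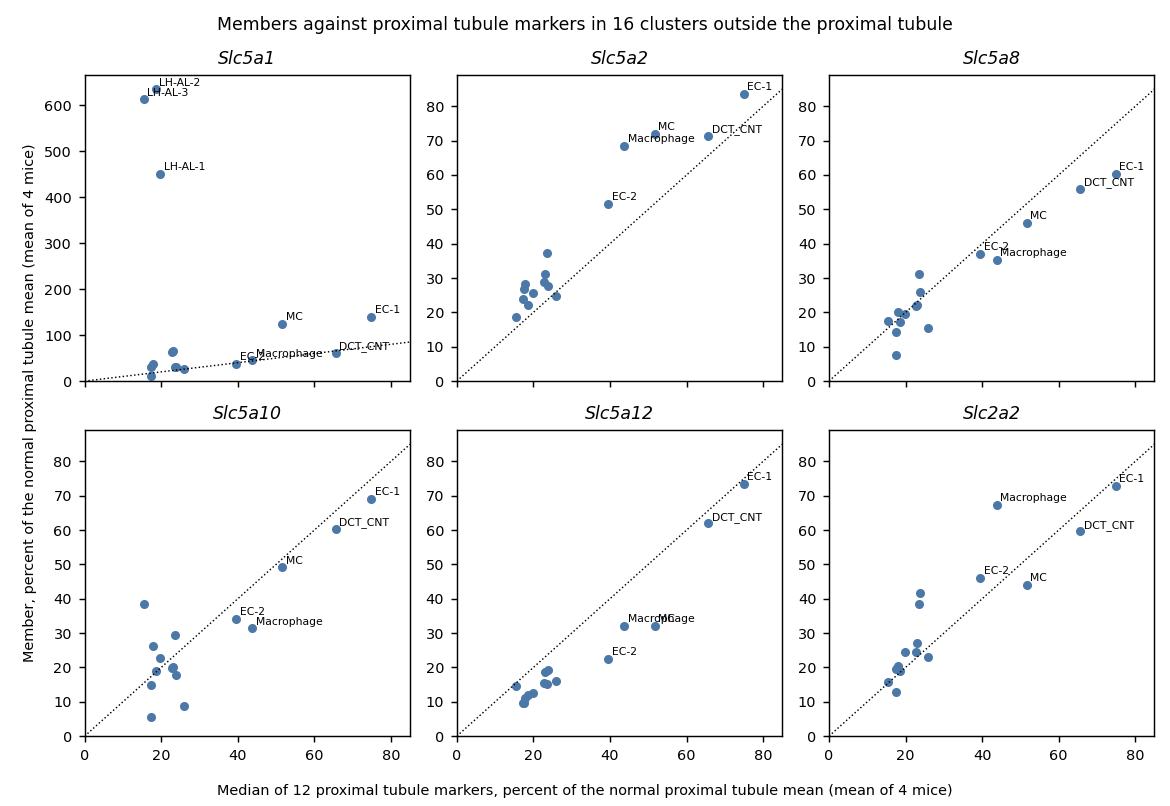
Each of 16 clusters outside the proximal tubule, with the median of 12 proximal tubule markers on the horizontal axis and the member on the vertical axis, both as a percentage of the normal PT mean and averaged over 4 mice, and a dotted line of equality. *Slc5a12* lies at or below the line, *Slc5a2* mostly above it, and *Slc5a1* far above it in the LH-AL clusters, on a wider vertical axis.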

How the data were processed

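Nuclei of kidney cortex from 4 mice, 1 per condition, were profiled on the 10x Chromium system and prepared together. The submitters' processing notes name Cell Ranger, Seurat and mm10. The authors counted reads on a mouse pre-mRNA reference, which keeps intronic reads, dropped nuclei by gene number and by mitochondrial reads, and grouped those left into clusters. The sources describe no doublet removal here. What they deposited is a linear signal, in which nuclei brought to a total of 10000 counts were averaged by cluster and mouse, with each of 92 columns adding up to 10000. The unit was read from the values. The table gives neither nuclei nor raw counts behind a column, so depth is unknown and no interval could be given.

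Of 19632 rows, 23 with date-like names were left out. Levels were compared as differences of log2(level + 1), with a minimum level of 0.5 on either side and a limit of 0.2, using unweighted means of the 5 normal PT clusters, or of 2 early and 3 late ones. No test was run, since each condition has 1 mouse. The calling code was checked on simulated data. Alternatives were a pseudocount of 0.1, no minimum, a minimum of 2, limits of 0.5 and 1, centring on the median, other reference clusters, each AAI mouse alone and, chosen after seeing the data, leaving out PT-S3-1. The related genes named are those with the 3 largest differences in each direction, with *Pdzk1ip1*, *Pdzk1* and *Hnf4a* always, and the 3 genes most like each member. Some listed genes are not reported here and were left out of the list's counts. The members and lists were chosen with earlier results of these data known. Scripts ran in Python 3.11.15 with numpy 2.4.6 and pandas 2.3.3.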

Additional observations from a re-analysis of the deposited data

Results flagged for a closer look

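Opposite differences with AAI in Control and OE, both past the limit of 0.2, were found in 2 of 30 pairs of a member and a normal PT cluster. The 30 pairs include those of *Slc5a1*, whose levels there were under the minimum of 0.5. The share of all genes with such opposite differences was not worked out, so whether 2 of 30 is unusual is not known. The difference was not tested, since each condition has 1 mouse. *Slc5a12* in PT-S1-S2-1 had log2 differences of 0.42 in Control and -0.32 in OE, which is -0.74 for OE minus Control. *Slc5a10* in PT-S3-3 had -0.25 and 0.30, which is 0.55 for OE minus Control.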

How the results depend on the processing

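No paired analysis was possible because each condition has 1 mouse. The limits of the data are the single mouse per condition, unknown numbers of nuclei and counts per column, cluster means in which a changed mix of nuclei and changed transcription look alike, and levels near 1 at which a log2 difference depends on the pseudocount. In all of the following, counts are of the members with high enough levels under the setting named, 5 as reported. The cause of a change was not tested unless the setting itself removes members. Shares of all genes under the changed settings are not given, so these counts show only how far the members' calls depend on the setting.

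The early and late counts held under every setting except a minimum of 2 and a limit of 1. In both of these, 2 members in place of 3 were higher in the early tubule and 1 in place of 2 was lower. For InjuredPT-A the 4 lower members became 2 with a minimum of 2 and with a limit of 0.5, 1 with a limit of 1, and 2 lower and 1 higher against the late clusters, while 1 was higher and 3 lower against the early ones. They became 5 after centring, in the Control AAI mouse alone and without PT-S3-1. For InjuredPT-B the count of higher members, 0 as reported, was 1 with a pseudocount of 0.1, against the late clusters, against the early clusters, against the uninjured mouse, in the Control AAI mouse alone and without PT-S3-1, and the 3 lower members became 1 with a limit of 1, 2 against the late clusters, and 4 with a pseudocount of 0.1, after centring, against the uninjured mouse and in the OE AAI mouse alone.

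Against the late clusters *Slc5a2* reversed in InjuredPT-A, to 0.26 and 0.22, and in InjuredPT-B, to 0.29 and 0.15 in Control AAI and OE AAI. In Control AAI *Slc2a2* reversed in InjuredPT-A, to 0.26, and *Slc5a12* in InjuredPT-B, to 0.44. Against the early clusters *Slc5a8* reversed to 0.82 in InjuredPT-A of Control AAI and to 0.53 and 0.76 in InjuredPT-B, *Slc5a10* to 0.21 and 0.29 in InjuredPT-A and to 0.20 in InjuredPT-B of OE AAI, and *Slc2a2* to -0.24 in InjuredPT-B of Control AAI. For the differences of 0.21 and 0.20 the levels of *Slc5a10* were under the minimum of 0.5. Against the uninjured mouse *Slc2a2* reversed in InjuredPT-A, to 0.16 and 0.34.

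For AAI in Control, 1 higher and 1 lower member remained in number with a minimum of 2, 1 and 0 with a limit of 0.5, 0 and 0 with a limit of 1, and 1 was lower in the late clusters alone. For AAI in OE, 0 were lower with a limit of 0.5, 0 were higher or lower with a limit of 1, 2 were higher in the late clusters alone and 0 were lower without PT-S3-1. For OE against Control without AAI, 3 were lower with a pseudocount of 0.1, 2 in the early clusters alone and without PT-S3-1, and 0 with limits of 0.5 and 1. With AAI, 2 were higher with a pseudocount of 0.1 and in the late clusters alone, 0 without PT-S3-1 and with limits of 0.5 and 1. Lower members were 1 in the early clusters alone, in the late clusters alone and without PT-S3-1, and 0 with limits of 0.5 and 1. *Slc5a12* reversed to 0.98 in the late clusters alone.

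In PT-S3-1 with AAI in Control, 1 was higher and 1 lower with a minimum of 2, 1 lower with a limit of 0.5, and 1 higher and 0 lower with a limit of 1. In OE 2 were lower with a pseudocount of 0.1 and after centring, and the 3 higher members became 2 with a minimum of 2 and with limits of 0.5 and 1. Of the 18 genes named for likeness, 7 were also named over all 92 columns and 5 by Spearman's rho. Of all 6 members, *Slc5a1* included, the number above the markers' median in most of the pairs outside the proximal tubule was 3. It was 1 with the highest normal cluster as the reference.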
